A study of Caenorhabditis elegans with 2 samples.

Results

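The peaks described here are those of an EGL-18 chromatin immunoprecipitation that lie in the piRNA clusters of *Caenorhabditis elegans* chromosome IV. A peak was taken when its summit, the highest point of the peak, lay at positions 4500000 to 7000000 (the first cluster) or 13500000 to 17200000 (the second cluster) of chromosome IV in the ce11 assembly. Of the 117695 peaks in the ranked list of the series, 4813 met this rule, 2255 in the first cluster and 2558 in the second. The rest of chromosome IV held 13148 ranked peaks. The rule used position only, and no measured value.

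The series had 1 group of 2 biological replicates of whole young adults of strain RW12252, aged 63 h, grown from starved first-stage larvae. The worms carry st12252[egl-18::TY1::EGFP::3xFLAG], a tag set into the *egl-18* gene by CRISPR, so that the fusion protein comes from its own locus and an antibody against GFP pulls down DNA bound by it. The *egl-18* gene is itself on chromosome IV, at chrIV:1902322-1917840, outside both clusters. Both samples carry the tag, no untagged or input list was used, and a list from whole worms does not say in which tissue a peak arose.

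EGL-18 belongs to the GATA family of transcription factors and acts in epidermal seam cells and the developing vulva. The piRNAs of *C. elegans*, also called 21U-RNAs, are small RNAs of the germ line that guide the Argonaute protein PRG-1 to foreign transcripts such as those of transposons. Most are transcribed singly by RNA polymerase II from tiny genes of their own, many of which have the motif CTGTTTCA a short way upstream, and these genes crowd into wide domains of chromosome IV. The domains also hold protein-coding genes, tRNA genes and repeats, between which the piRNA genes are scattered.

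The annotation was checked against the name of the regions. Of 15363 annotated piRNA genes, 14204 (92.5%) lay in the clusters, 2816 in the first and 11388 in the second. A further 510 lay on the rest of chromosome IV and 649 on other chromosomes. Density came to 2291 piRNA genes per Mb in the clusters and 45.2 per Mb in the rest of the chromosome. Bases within 150 bp of a piRNA gene made up 40.4% of the clusters and 1.23% of the rest of chromosome IV.

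Sequences of 4 such genes, each with the 60 bases before it and read on the strand of the gene, show what the peaks were measured against. The gene is the last 21 bases of each line, and capitals mark an exact copy of the motif CTGTTTCA where there is one. 21ur-2841 (chrIV:14035201-14035221, + strand) is the nearest piRNA gene to the called peak beside *mir-52* and has the motif, which starts 45 bp before the gene. 21ur-7591 (chrIV:14327393-14327413, − strand) is the piRNA gene closest to any called summit. 21ur-4742 (chrIV:16682724-16682744, − strand) is the gene that holds the summit of a peak of the second tier. 21ur-8729 (chrIV:6123615-6123635, − strand) is beside the highest-scoring peak within 150 bp of a piRNA gene.
21ur-2841: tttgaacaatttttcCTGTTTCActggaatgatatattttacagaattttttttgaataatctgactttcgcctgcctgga
21ur-7591: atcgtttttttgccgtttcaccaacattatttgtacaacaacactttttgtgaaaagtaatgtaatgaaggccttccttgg
21ur-4742: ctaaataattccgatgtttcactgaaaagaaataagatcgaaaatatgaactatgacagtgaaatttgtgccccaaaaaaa
21ur-8729: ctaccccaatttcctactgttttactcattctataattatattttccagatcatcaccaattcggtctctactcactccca

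Each peak carries 2 values from the authors. The score runs up to 1000 and comes from the IDR (irreproducible discovery rate), a measure of how well the ranks of a peak match between paired inputs; a score of 540 corresponds to an IDR of 0.05 and 830 to an IDR of 0.01. The height is the peak caller's own signal, on a scale that is not stated, and serves only to rank peaks within a list. Called peaks are those of the series' thresholded list, which holds 699 peaks. The clusters held 29 called peaks, 12 in the first and 17 in the second. That was 0.603% of the ranked cluster peaks, against 0.593% in the rest of chromosome IV (78 called) and 0.594% in the whole list. In this list the share called in the clusters was thus close to the background. Scores of 540 or more were reached by 117 cluster peaks, 2.43% of those ranked, against 2.24% in the rest of chromosome IV and 2.40% genome-wide. Scores of 830 or more were reached by 33 cluster peaks (0.686%), against 96 in the rest of chromosome IV (0.730%) and 800 genome-wide (0.680%). In the conservative lists of the series, 29 of 4405 ranked cluster peaks were called (0.658%), against 56 of 12132 in the rest of chromosome IV. Intervals are 95% intervals that cover the number of peaks only. Peaks of 1 chromosome are not replicates, so no test of the clusters against the rest of the chromosome was made.

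Ranked peaks were less dense in the clusters. There were 776 ranked peaks per Mb in the clusters (754 to 798) and 1164 per Mb in the rest of chromosome IV (1144 to 1184), a ratio of 0.667 (0.645 to 0.689). The second cluster, with the more piRNA genes, had 691 per Mb and the first 902 per Mb. Outside, the 3 stretches of chromosome IV had 1221 per Mb before the first cluster, 1124 between the clusters and 1188 after the second. Each replicate's own ranked list gave a ratio below 1, with 2695 cluster peaks and a ratio of 0.687 (0.656 to 0.718) in replicate 1, and 2410 cluster peaks and a ratio of 0.738 (0.703 to 0.774) in replicate 2.

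Called peaks were too few to place as firmly. Their density was 4.68 per Mb in the clusters (3.13 to 6.72) and 6.91 per Mb in the rest of chromosome IV (5.46 to 8.62), a ratio of 0.677 whose interval, 0.426 to 1.05, includes 1. In the conservative lists of the series the ratio was 0.943 (0.581 to 1.50). Replicate 1's thresholded list had 7 peaks in the clusters and 21 in the rest of chromosome IV, a ratio of 0.607 (0.218 to 1.48). Replicate 2's had 14 in the clusters and 20 in the rest, a ratio of 1.275 (0.596 to 2.65). The replicates' called lists thus fell on either side of 1, and neither interval excludes it. The share of ranked cluster peaks called was 0.260% in replicate 1 (0.294% in the rest of IV) and 0.581% in replicate 2 (0.336% in the rest of IV). Over the whole genome these shares were 0.307% in replicate 1 and 0.428% in replicate 2. For scores of 540 or more in the series list, the ratio was 0.725 (0.580 to 0.901), from 18.9 per Mb in the clusters and 26.0 per Mb in the rest of IV.

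Within the clusters, the density of ranked peaks climbed with distance from the piRNA genes. With the summit inside a piRNA gene there were 361 ranked peaks per Mb of such sequence. At up to 50 bp from a gene it was 414, then 511 at up to 150 bp, 753 at up to 300 bp and 785 at up to 500 bp, each step leaving out the one before. Farther away it was 913 at up to 1000 bp, 1088 at up to 2000 bp and 1213 beyond 2000 bp. In the first cluster the climb was uneven, with 839 at up to 300 bp and 689 at up to 500 bp. The share of G and C in the clusters was 31.7% inside genes, 27.8% at up to 50 bp and 36.7% beyond 2000 bp. The rest of chromosome IV had 1164 per Mb. Density there was also lower beside piRNA genes, at 608 inside a gene (6 peaks, 223 to 1322) and 723 at up to 50 bp (33 peaks). It was 952 to 1136 at the steps between and 1178 beyond 2000 bp. In the clusters, both replicates showed the slope on their own, from 189 inside a gene to 681 beyond 2000 bp in replicate 1, and from 185 to 610 in replicate 2. The plot of density by distance shows all 3 lists.

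**Figure D1:**
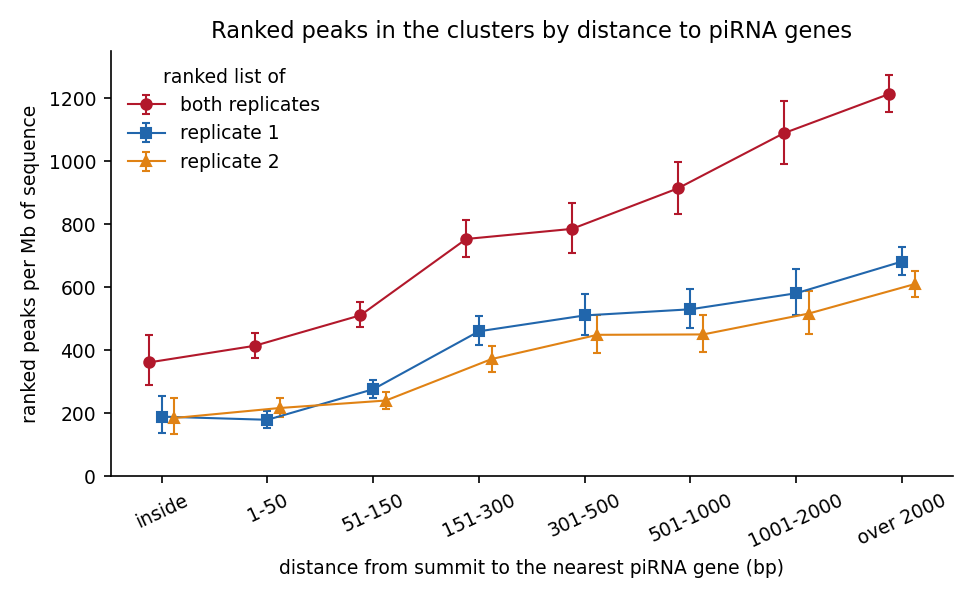
Ranked peaks per Mb of cluster sequence (y) by distance of the summit to the nearest piRNA gene (x), for the series list and each replicate's list. Bars are exact 95% Poisson intervals that cover the number of peaks only; in the series list the density is 361 per Mb inside piRNA genes and 1213 per Mb beyond 2000 bp.

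Taken as a single step at 150 bp, the density was 459 per Mb near piRNA genes and 991 per Mb in other cluster sequence, a ratio of 0.463 (0.432 to 0.494). It was 0.550 in the first cluster and 0.440 in the second. The direction held in each location class with enough sequence, with ratios of 0.528 in promoters, 0.653 in exons, 0.537 in introns and 0.448 in intergenic sequence. Base composition moved with this difference. Sequence near piRNA genes had 29.0% G and C, other cluster sequence had 35.7% and the rest of chromosome IV 35.5%. Within 5 bands of GC content, measured over each base and 75 bp on either side, the ratio near over away was closer to 1, at 0.771 in the lowest band, then 0.703, 0.779 and 0.835, and 0.918 (0.748 to 1.12) in the highest. The part of GC content in the result was not tested beyond these bands. Repeats differed the other way: 97.5% of 31-base words near piRNA genes occurred once in the genome, against 82.3% in other cluster sequence. Restricted to windows where at least 90% of the 31-base words were unique, the ratio was 0.437 (0.407 to 0.469).

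The same bands bear on the clusters as wholes. Cluster sequence had 33.0% GC, against 35.5% in the rest of chromosome IV. The ratio of ranked density, clusters over rest, was 0.544 in the lowest band of GC, then 0.653, 0.822 and 0.874, and 0.869 (0.816 to 0.925) in the highest. Leaving out all bases within 150 bp of piRNA genes brought the ratio to 0.849 (0.818 to 0.881).

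Bins of 500 kb give the picture at a coarser scale. The 12 cluster bins had 516 to 1012 ranked peaks per Mb (median 810) and the 23 other bins 876 to 1334 (median 1156), so the groups of bins overlapped. The lowest bin, with 516 per Mb, lay in the second cluster and had 3208 piRNA genes per Mb. Over the 35 bins, ranked density fell with the density of piRNA genes (Spearman rho −0.81) and rose with GC content (rho 0.87). Among the 12 cluster bins, rho was −0.77 with piRNA genes and 0.92 with GC. These are descriptions, since neighbouring bins share their libraries, the peak caller's background and their base composition.

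**Figure D2:**
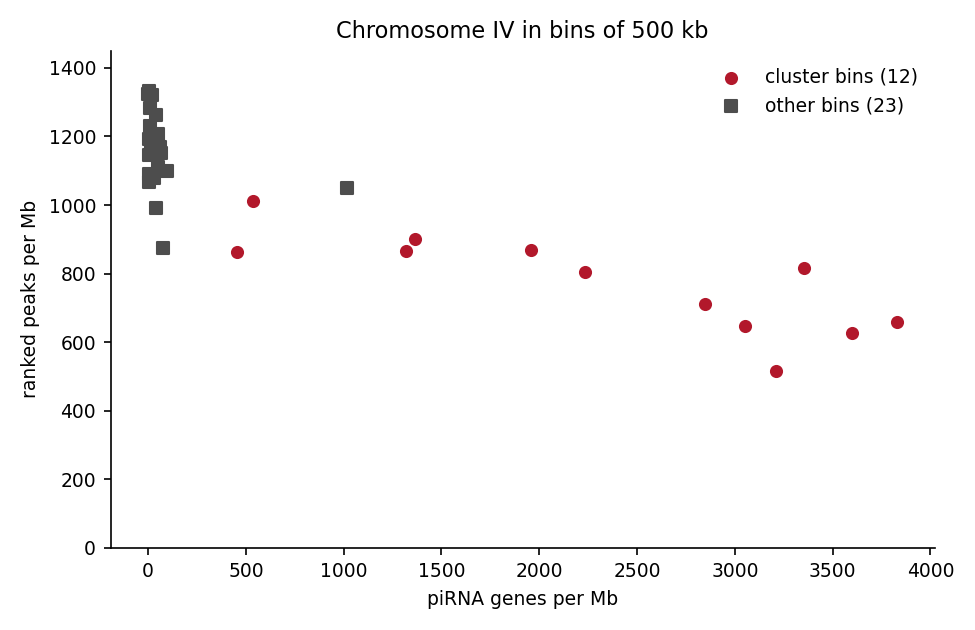
Ranked peaks per Mb (y) against piRNA genes per Mb (x) in bins of 500 kb along chromosome IV, with cluster bins and other bins marked apart. The 12 cluster bins run from 516 to 1012 ranked peaks per Mb and the 23 others from 876 to 1334; the other bin at 1017 piRNA genes per Mb also holds the end of the second cluster.

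The share of cluster peaks beside a piRNA gene was counted by tier of score. Of the 4813 ranked peaks, 1148 (23.9%, 22.7 to 25.1) had a summit within 150 bp of one, against 40.4% of the sequence. Among scores of 540 or more it was 7 of 117 (5.98%, 2.44 to 11.9), among scores of 830 or more 0 of 33, and among called peaks 0 of 29, which allows a share of up to 10.3%. The share among ranked peaks was 21.3% in replicate 1 and 23.4% in replicate 2, and in neither replicate did any of the peaks with scores of 540 or more (21 in replicate 1, 22 in replicate 2) lie within 150 bp. GC content moved with the tiers. It averaged 38.0% around the summits of ranked cluster peaks, 44.8% at scores of 540 or more and 45.3% for called peaks, against 29.0% in sequence near piRNA genes. Of cluster sequence with 42.5% GC or more, 8.76% was near a piRNA gene, and so were 8.10% of ranked peaks there (6.70 to 9.69) and 6 of 71 with a score of 540 or more (8.45%, 3.17 to 17.5). Among called peaks of that band it was 0 of 18, and the upper bound of its interval, 18.5%, lies above the share of sequence. These bands were chosen after seeing the data. The count of 0 among called peaks also depended on the list. In the conservative thresholded list of the series, 2 of 29 called cluster peaks did, both of them among the 7 peaks described next. From the called summits of the main list, the nearest piRNA gene was 236 to 18888 bp away, with a median of 1724 bp.

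**Figure D3:**
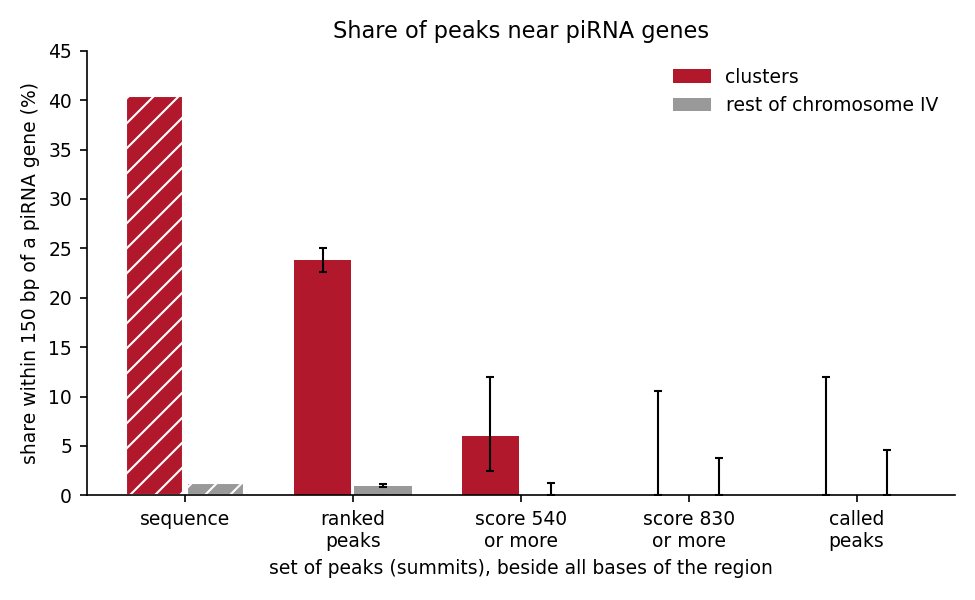
Share of bases (hatched) and of peaks by tier (filled) that lie within 150 bp of a piRNA gene, in percent, for the clusters and the rest of chromosome IV; bars are exact 95% Clopper-Pearson intervals. In the clusters the share is 40.4% of sequence, 23.9% of ranked peaks, 5.98% at scores of 540 or more and 0 for called peaks.

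Peaks beside piRNA genes were also low in height. The 1148 had a median height of 19.2 and a median score of 60, and the 3665 other cluster peaks 23.4 and 136. A score of 60 is the lowest of the ranked cluster peaks, and both medians lie far below 540, the score at an IDR of 0.05. The highest near a piRNA gene reached 84.8, against 429 among the others. In the replicates' lists, 39.7% of the near peaks overlapped a ranked peak of replicate 1 and 37.0% one of replicate 2, while for the other cluster peaks these shares were 52.4% and 46.7%. Low heights beside piRNA genes were not particular to the clusters. In the rest of chromosome IV the median height was 17.7 at 1 to 50 bp (33 peaks, sequence of 30.1% GC). Beyond 2000 bp it was 22.6 there (35.6% GC). Heights were not compared within bands of GC.

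Seen from the genes, 1870 of the 14204 cluster piRNA genes (13.2%) had a ranked summit within 150 bp. A summit with a score of 540 or more lay near 8 (0.0563%), and a called one near none. Neighbouring genes share summits, and the count of 0 rests on 29 called peaks. The number of genes therefore sets no limit on it. On the rest of chromosome IV, 140 of 510 piRNA genes (27.5%) had a ranked summit and none a higher one. On other chromosomes, 211 of 649 (32.5%) had a ranked summit, 6 one with a score of 540 or more and 3 a called one.

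The 7 peaks with a score of 540 or more near a piRNA gene had scores from 547 to 807. The highest score, 807 with a height of 67.4, lay in an exon of *M03D4.4*, 149 bp upstream of the start of 21ur-8729, whose sequence is given among the 4 genes. Its height was 22.2 in replicate 1 and 42.8 in replicate 2. The next was 128 bp downstream of the start of 21ur-11151, with a score of 802, a height of 84.8, and heights of 45.2 and 42.0 in replicates 1 and 2. It is 1 of the 2 called near piRNA genes in the conservative list. The other, with a score of 774 and a height of 74.2, lay in an intron of *Y105C5A.15* beside 21ur-3443 and had heights of 41.6 and 35.5 in replicates 1 and 2. The remaining 4 lay beside 21ur-10556 (score 761), 21ur-12313 (670), 21ur-4742 (555) and 21ur-3556 (547). Only the peak at 21ur-4742 had its summit inside the piRNA gene. None of the 7 genes had an exact copy of CTGTTTCA in the 60 bp before its start, where 34.8% of cluster piRNA genes have one. Copies with 1 base changed, such as ATGTTTCA before 21ur-4742, were not counted, so these genes cannot be said to lack the motif.

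The upstream motif was looked for under the peaks too. Within 75 bp of the summit, CTGTTTCA on either strand was in 0 of 29 called cluster peaks (0 to 11.9%). It was in 0 of 117 cluster peaks with a score of 540 or more (0 to 3.10%). It was in 6.05% of all ranked cluster peaks, against 11.1% of tiles of the same length over the clusters; in the rest of chromosome IV it was in 0.966% of ranked peaks and 1.15% of tiles. It was in 20.3% of ranked cluster peaks within 150 bp of a piRNA gene and in 1.58% of the others. The interval for called peaks includes the share in cluster tiles, and that for scores of 540 or more includes 1.58%. Of the 29 called peaks 0, and of the 117 only 7, lay within 150 bp of a piRNA gene. The counts of 0 are therefore not a result separate from that position. In the 60 bp before cluster piRNA genes, 34.8% had it on the strand of the gene, with the median start 46 bp before the gene.

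GATA factors bind sites built on the letters GATA. The 4 hexamers with GATA after an A or a T and before an A or a G, counted jointly on both strands in the same windows, were in 8 of 29 called cluster peaks (27.6%, 12.7 to 47.2) and in 15 of 78 called peaks of the rest of chromosome IV (19.2%, 11.2 to 29.7). All ranked cluster peaks had one in 26.4%, and tiles of the clusters in 28.7%. Tiles of the rest of chromosome IV had one in 28.6%. The intervals of both called shares include the share in the tiles of their own region. At scores of 540 or more it was 23 of 117 cluster peaks (19.7%, 12.9 to 28.0), an interval below the share in cluster tiles. Summits of that tier averaged 44.8% GC, against 33.0% in cluster sequence. The share with a GATA hexamer was not compared within bands of GC.

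Called cluster peaks had a median height of 90.4 (79.0 to 109) and a range from 21.2 to 429. Those of the rest of chromosome IV had a median of 79.0 (74.5 to 85.4) and a range from 32.1 to 282. The median was 95.5 in the first cluster and 81.7 in the second. The top score of 1000 was held by 16 of the 29 cluster peaks and by 34 of the 78 others. Over all ranked peaks, the median height was 22.2 in the clusters (21.7 to 22.7) and 22.5 in the rest of IV (22.2 to 22.8). The intervals of both pairs of medians overlapped.

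The highest called peaks of the first cluster stood close together. Of its 12, 6 had summits within 29373 bp, between positions 4720710 and 4750083, and a single piRNA gene, 21ur-15541, starts between them. Chief among them was chrIV:4725503-4725710, with a height of 429, intergenic and 262 bp from *K08F11.1*. Of its 31-base words, 71.9% occur more than once in the genome, in up to 8 copies, so its height cannot be laid to this place alone. Its sequence is given on the + strand, with capitals for the 21 bases centred on the summit. Heights in the replicates' own lists were 224 in replicate 1 and 218 in replicate 2, and it was called in both.
Highest cluster peak: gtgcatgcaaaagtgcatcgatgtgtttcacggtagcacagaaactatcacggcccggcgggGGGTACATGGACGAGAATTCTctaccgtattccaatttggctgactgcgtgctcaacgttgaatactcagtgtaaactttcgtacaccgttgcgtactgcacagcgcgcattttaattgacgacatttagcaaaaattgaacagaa

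Close by, chrIV:4727982-4728113 had a height of 274 (153 in replicate 1, 124 in replicate 2) and was called in both. chrIV:4720572-4720847 had a height of 119 (57.2 and 64.3) and was called in neither. These 2 peaks share a run of 91 identical bases on opposite strands (in capitals), so that they hold inverted copies of that stretch.
chrIV:4727982-4728113: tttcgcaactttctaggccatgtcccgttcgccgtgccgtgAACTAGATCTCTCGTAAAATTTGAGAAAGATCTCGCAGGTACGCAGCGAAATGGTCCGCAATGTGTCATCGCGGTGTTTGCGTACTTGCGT
chrIV:4720572-4720847: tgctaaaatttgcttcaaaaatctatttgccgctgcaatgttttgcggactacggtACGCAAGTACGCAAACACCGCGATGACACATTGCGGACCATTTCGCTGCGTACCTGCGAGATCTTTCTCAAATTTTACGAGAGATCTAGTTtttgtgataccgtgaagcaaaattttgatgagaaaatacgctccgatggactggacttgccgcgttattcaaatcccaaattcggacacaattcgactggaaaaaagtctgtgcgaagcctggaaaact

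The second highest, chrIV:4750008-4750146, had a height of 279 (135 in replicate 1, 146 in replicate 2). It lay upstream of the starts of *Y17G9B.5*, 157 bp away, and of *rpl-20*, 305 bp away, a gene for a large-subunit ribosomal protein. It was called in both replicates and holds no repeated 31-base word. The other 2 of the 6 were low, at heights of 57.3 and 21.2 in the promoter of *cyc-2.1*, a cytochrome c gene. The peak at 21.2 was the lowest of all called cluster peaks, at 12.1 in replicate 1 and with no ranked peak in replicate 2, yet had a score of 860.

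In the second cluster, the 2 highest called peaks were tandem arrays. chrIV:15895935-15896210, 342 bp from 21ur-15381 and 1840 bp from the chemoreceptor gene *srv-14*, had a height of 267. It reached 149 in replicate 1 and had no ranked peak in replicate 2. chrIV:15059194-15059469, 638 bp from *Y41E3.13*, had a height of 200 (90.1 in replicate 1, 117 in replicate 2) and was called in both. Both are built of a repeating unit of 40 bp and share a run of 79 bases. Capitals mark matches, on both strands and with overlaps, to GAA and TTC in alternation, 3 in a row and each pair parted by 2 free bases. Heat shock factor is known to bind such arrays. The motif was chosen after the sequences were seen.
chrIV:15895935-15896210: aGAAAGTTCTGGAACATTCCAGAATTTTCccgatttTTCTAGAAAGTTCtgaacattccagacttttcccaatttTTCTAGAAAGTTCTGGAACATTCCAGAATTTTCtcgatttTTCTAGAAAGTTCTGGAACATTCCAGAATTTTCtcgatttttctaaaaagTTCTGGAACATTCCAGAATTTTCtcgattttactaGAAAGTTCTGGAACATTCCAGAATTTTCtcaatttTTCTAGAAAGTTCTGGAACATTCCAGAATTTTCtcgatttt
chrIV:15059194-15059469: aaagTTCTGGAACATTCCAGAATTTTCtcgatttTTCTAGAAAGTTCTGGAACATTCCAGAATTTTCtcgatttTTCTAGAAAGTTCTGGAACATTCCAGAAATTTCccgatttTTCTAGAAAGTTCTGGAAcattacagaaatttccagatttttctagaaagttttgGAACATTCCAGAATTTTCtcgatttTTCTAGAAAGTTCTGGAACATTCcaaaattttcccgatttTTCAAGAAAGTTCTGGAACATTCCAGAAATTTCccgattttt

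The first array held 27 overlapping matches and the second 25. Matches also occurred outside the clusters: 2 of 29 called cluster peaks had a match within 75 bp of the summit (6.90%) and 5 of 78 called peaks in the rest of IV did (6.41%), against 1.27% of cluster tiles. Of 16 ranked cluster peaks with 10 or more matches, 2 were called (12.5%, 1.55 to 38.4), and of 22 in the rest of chromosome IV, 4 were (18.2%, 5.19 to 40.3). Of all ranked peaks, 0.603% were called in the clusters and 0.593% in the rest of IV. The 2 called cluster peaks in both counts are the 2 arrays whose sequences led to the choice of motif. The cluster shares therefore follow from that choice, and nothing is concluded from setting them against tiles or ranked peaks. The third of the clusters, with 33 matches beside *vamp-8*, had a height of 60.8 (28.1 in replicate 1, 30.0 in replicate 2).

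Repeated sequence was common among the highest peaks. Of the 29 called cluster peaks, 7 (24.1%, 10.3 to 43.5) had at least 50% of their 31-base words elsewhere in the genome too, and 6 of these were among the 10 highest. In the rest of IV it was 12 of 78 called peaks (15.4%, 8.21 to 25.3), and among ranked peaks 8.85% in the clusters and 6.07% in the rest of IV. The sources used here do not say how reads from such copies were assigned, so the height of a repeated peak cannot be laid to 1 copy. Without such peaks, called density was 3.55 per Mb in the clusters (22 peaks) and 5.84 per Mb in the rest of IV (66 peaks), a ratio of 0.607 (0.357 to 0.997); this setting was chosen after seeing the data. The fourth intergenic peak of this kind in the second cluster, chrIV:13922332-13922607, had a height of 91.7 (58.2 in replicate 1, 34.1 in replicate 2) and words present in up to 495 copies.

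A pair of promoters in the second cluster carried related sequence of another sort. chrIV:15472455-15472730 lay 216 bp upstream of *Y73F8A.27* with a height of 107 (52.2 in replicate 1, 56.2 in replicate 2). chrIV:15471506-15471781 lay 149 bp upstream of *ntl-11*, a subunit gene of the CCR4-NOT complex that shortens mRNA tails, with a height of 103 (49.4 and 59.3). Both were called in replicate 2 alone. No 31-base word of either recurs in the genome, but the peaks share the 30 bases in capitals.
chrIV:15472455-15472730: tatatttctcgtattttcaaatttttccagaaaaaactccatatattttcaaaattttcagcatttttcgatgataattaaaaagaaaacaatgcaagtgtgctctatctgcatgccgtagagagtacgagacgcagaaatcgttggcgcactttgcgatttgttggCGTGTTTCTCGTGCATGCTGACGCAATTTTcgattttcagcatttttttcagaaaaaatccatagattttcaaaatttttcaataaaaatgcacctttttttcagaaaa
chrIV:15471506-15471781: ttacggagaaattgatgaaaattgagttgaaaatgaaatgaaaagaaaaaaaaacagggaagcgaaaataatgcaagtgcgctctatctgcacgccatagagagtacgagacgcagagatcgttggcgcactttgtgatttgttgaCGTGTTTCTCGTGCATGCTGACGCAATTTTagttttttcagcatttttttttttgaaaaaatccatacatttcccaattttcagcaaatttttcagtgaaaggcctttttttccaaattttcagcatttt

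Of the other peaks among the 20 highest, most were in promoters or intergenic. In promoters lay those of *Y105C5A.1268* (height 116; 51.3 in replicate 1, 66.6 in replicate 2), *sqd-1*, which encodes an RNA-binding protein (100; 42.1 and 63.0), *W03F8.4* (90.6), *F41H10.3* (90.4), *Y65A5A.2* (81.7) and *Y45F10D.16* (80.8). Intergenic ones lay 2616 bp from *Y116A8A.150* (128; 53.7 and 80.6), 950 bp from the ankyrin gene *unc-44* (81.2) and 139 bp beyond the 3' end of *pgl-1* (109; 54.1 and 55.0). PGL-1 is a protein of the P granules, where the PRG-1 pathway works; the promoter of *pgl-1* had ranked peaks up to a height of 27.2, none called. An intron of *Y105C5A.15* held 1 more (80.9). The last was at *mir-52*.

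In the series' called list, some cluster peaks lay at small RNA genes of other kinds. Of the 29, 4 (13.8%, 3.89 to 31.7) had a summit within 150 bp of a tRNA, snoRNA, snRNA or miRNA gene, as had 11 of 78 in the rest of IV (14.1%, 7.26 to 23.8). Such sequence made up 0.593% of the clusters. Of all ranked peaks, 1.14% in the clusters and 0.791% in the rest of IV had such a summit. In the replicates' own called lists, 1 of 7 cluster peaks had one in replicate 1 and 0 of 14 in replicate 2. The 4 lay 50 bp from the miRNA gene *mir-52* (height 89.2; 71.0 in replicate 1, 41.6 in replicate 2), 3 bp from the tRNA gene WBGene00014608 in an intron of the chemoreceptor gene *srv-16* (79.0; 34.2 and 36.3), 36 bp from the snoRNA gene Y67A10A.14 (73.1; 39.1 and 34.6) and 25 bp from the tRNA gene WBGene00014596 (70.0; 23.4 and 48.4). All 4 were in the second cluster. The snoRNA peak, upstream of the F-box gene *fbxa-83*, is the called peak closest to a piRNA gene, 236 bp from 21ur-7591.

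Peaks were also placed by location. Promoters ran from 1000 bp before to 200 bp after the start of each coding transcript. Of the called cluster peaks, 13 of 29 (44.8%, 26.5 to 64.3) lay in promoters, which make up 21.3% of the sequence; in the rest of IV it was 40 of 78 (51.3%, 39.7 to 62.8) of 28.3% of the sequence. In the replicates' own called lists, 1 of 7 cluster peaks lay in promoters and 5 in intergenic sequence in replicate 1 (14.3% in promoters), and 6 of 14 and 7 of 14 in replicate 2. At scores of 540 or more in the series list, 35 cluster peaks were in promoters and 36 in intergenic sequence. In the series' called list, intergenic sequence had 10 (34.5%, 17.9 to 54.3) in the clusters and 17 (21.8%, 13.2 to 32.6) in the rest. There were 3 called intron peaks in the clusters and 11 in the rest of IV, 1 and 7 in exons, and 2 and 3 at small RNA genes outside these classes. Intervals of the clusters and the rest overlapped in each class.

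**Figure D4:**
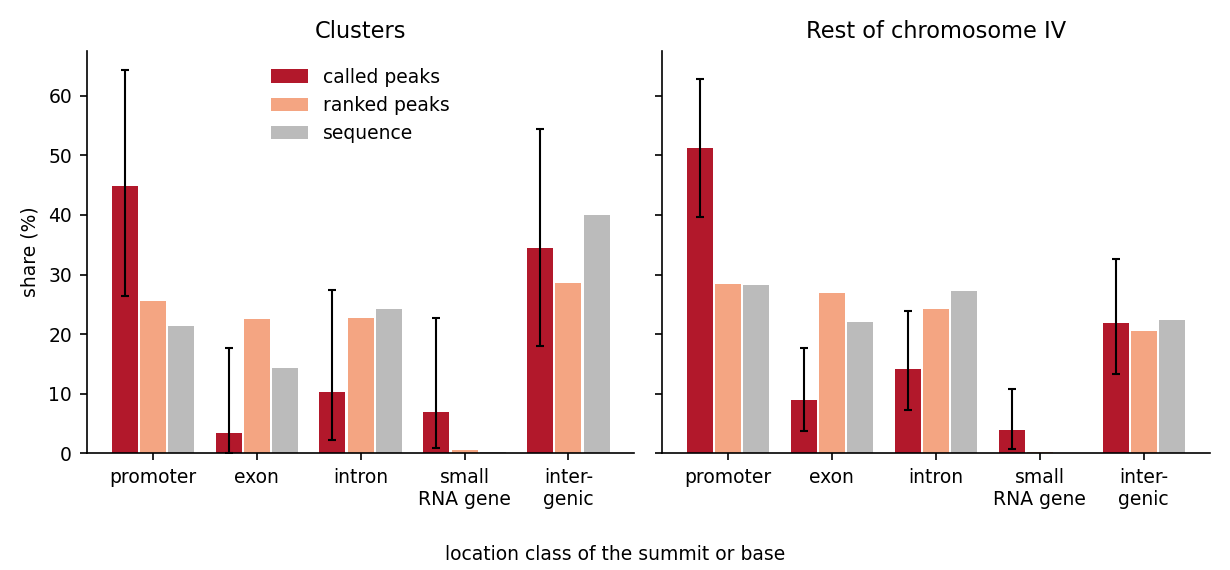
Share of called peaks, ranked peaks and bases (y, percent) in each location class (x), in the clusters and in the rest of chromosome IV; bars on called peaks are exact 95% Clopper-Pearson intervals. Promoters hold 44.8% of called cluster peaks and 21.3% of cluster sequence, and 51.3% of called peaks and 28.3% of sequence in the rest of the chromosome.

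Among the 941 coding genes of the clusters, 65.9% had a ranked peak in the promoter, 3.83% one with a score of 540 or more and 1.59% (15 genes) a called one. Of the 2340 in the rest of chromosome IV, the shares were 82.1%, 4.36% and 2.09%. Remaining called peaks at named genes were in the promoter of *thoc-7*, of the THO complex of mRNA export (height 69.3), in an exon of *ivd-1*, isovaleryl-CoA dehydrogenase (77.8), in an intron of *Y105C5B.11* (67.3) and 243 bp from *Y105C5A.24* (77.8).

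The called cluster peaks were followed into each replicate's own lists. All 29 had a ranked peak in replicate 1 and 27 had one in replicate 2. Heights ran from 12.1 to 224 in replicate 1 (median 46.1) and from 29.0 to 218 in replicate 2 (median 42.2). Over the 27 with both, Spearman's rho between the heights was 0.57, a description across peaks of the same libraries. In the thresholded lists, 4 (13.8%, 3.89 to 31.7) were called in both replicates, 2 in replicate 1 alone, 7 in replicate 2 alone and 16 (55.2%, 35.7 to 73.5) in neither. In the rest of IV, 14 of 78 (17.9%, 10.2 to 28.3) were called in both, 7 in replicate 1 alone, 4 in replicate 2 alone and 53 (67.9%, 56.4 to 78.1) in neither. All 16 called in neither were ranked in replicate 1.

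**Figure D5:**
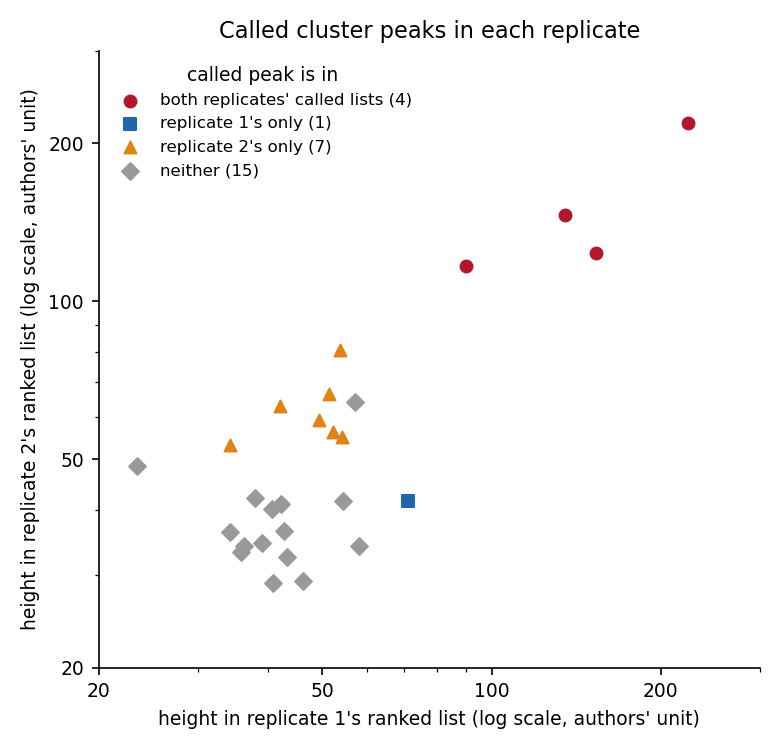
Heights of the 27 called cluster peaks with a ranked peak in both replicates, replicate 1 on x and replicate 2 on y (log scales, authors' unit), by the thresholded lists that hold them. The 4 peaks called in both have heights of 90.1 or more in replicate 1 and 117 or more in replicate 2.

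The 29 called cluster peaks all had scores of 838 or more. A further 4 cluster peaks with scores of 830 or more are not in the thresholded list, though each has the top score of 1000. In the rest of IV, 18 peaks with scores of 830 or more were left out of it. Of the 4 cluster peaks left out, 3 lay side by side near *Y57G11C.8*, the first starting at position 14779324 and the last ending at 14780566. Their heights, from the highest, were 326 (216 in replicate 1, 124 in replicate 2), 121 (77.5 and 44.9) and 85.0 (112 and 27.7). The fourth had a height of 66.9, no ranked peak in replicate 1 and a height of 116 in replicate 2. The thresholded list was derived from 1 further file that was not used here, and why these were left out was not tested.

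The called peaks nearest to the edges of the clusters were as follows. The first one inside the lower edge of the first cluster was 220710 bp in, and the last before its upper edge, the *pgl-1* peak, 25698 bp in. In the second cluster these distances were 275779 and 354411 bp. Just outside, the nearest called peaks were 30085 bp (at *M01H9.3*), 43727 bp (*klp-18*), 35905 bp (*fezf-1*) and 49907 bp (*ZK550.2*) away, each nearer than its counterpart inside except at *klp-18*.

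Genes that make and use piRNAs lie mostly outside the clusters, and the shares of them with promoter peaks were near those of all coding genes. Of 41 listed names, 38 matched the annotation. Of these, 33 (86.8%) had a ranked promoter peak, against 82.5% of all 19973 coding genes, 1 had a peak with a score of 540 or more (5.03% of all genes did) and none had a called one (1.87% of all genes). The median of their highest promoter peak was 27.9, against 30.3 for all genes with one. By role, 8 of 12 genes for transcribing piRNA genes had a ranked promoter peak, as did 11 of 12 for processing them, the Argonaute gene *prg-1*, and all 13 for downstream silencing and germ granules.

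The gene with a score of 540 or more was *simr-1*, of the downstream silencing step, with a height of 56.6 and a score of 676. Next came *znfx-1*, a helicase gene of germ granules (height 51.1, score 418), and *henn-1*, the methyltransferase of piRNA 3' ends (47.8, score 361). The peak at *prg-1* itself had a height of 20.5 and a score of 60. In the series list, no ranked promoter peak was found for *prde-1*, *attf-6*, *snpc-1.3* or *fkh-4*, all listed for piRNA transcription. The replicates' own ranked lists held a peak at *prde-1*, with a height of 10.4 in replicate 1 and 7.9 in replicate 2, and none at the other 3 genes. In the clusters themselves lie *pgl-1* and *slfl-4*, whose promoter peaks reached 27.2 and 30.0, with scores of 217 and 188.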

How the data were processed

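The deposited material used was 8 peak lists on ce11: a ranked and a thresholded list for each replicate, and 2 of each for the series, of which 1 pair is the conservative one. Per the descriptions deposited with the lists, each replicate's lists derive from that replicate's alignments and the series' lists from those of both. The sources used here name no aligner, peak caller or settings. The score deposited by the authors is -125 times log2 of the global IDR, capped at 1000. The height column holds the authors' peak signal, on a scale not stated. The deposited −log10 column holds the same global IDR. Read numbers are not in the lists, so library depth is unknown. The 4 columns of IDR input heights in the series' ranked lists were not used.

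Genes came from Ensembl release 115 and sequence from the RefSeq copy of WBcel235, which is ce11. A summit at 150 bp or less from a piRNA gene was near it. Location classes were assigned in the order promoter, exon, intron, small RNA gene (150 bp), intergenic. Shares have exact Clopper-Pearson intervals and densities exact Poisson intervals, at 95%, for counting error only. The limit that a count of 0 allows is 3 of the total. Repeats were counted as 31-base words of the nuclear genome, both strands. Named peaks were the 20 highest called cluster peaks, called peaks at other small RNA genes, those nearest the cluster edges, peaks with a score of 830 or more left out of the thresholded list, and peaks with a score of 540 or more near piRNA genes or at listed pathway genes; other peaks and genes were named after their values were seen. Calculations used Python 3.11.15, numpy 2.4.6, pandas 2.3.3 and scipy 1.17.1, and were tested on simulated data. The members, lists and tests were chosen with earlier results of these data known.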

Additional observations from a re-analysis of the deposited data

How the results depend on the processing

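The 6 main results were recomputed under 54 listed alternatives, of which 43 stayed within the interval of the value reported; 23 more alternatives were chosen after seeing the data, of which 10 did. The ratio of called density, clusters over rest of IV, was 0.607 and 1.275 with 1 replicate's lists alone, so it turned above 1 without replicate 1. With the conservative lists it was 0.943. The share of ranked cluster peaks called was 2.43% at scores of 540 or more, 0.332% for scores of 1000, and 0.260% to 0.581% with 1 replicate alone. The median height of called cluster peaks was 63.4 and 113 under the same 2 thresholds and 64.8 to 149 with 1 replicate alone. At 500 bp, 13.8% of called cluster peaks were near a piRNA gene. In promoters lay 14.3% to 42.9% with 1 replicate alone. Of scores of 540 or more, 3.42% were in both replicates' lists.

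Among the settings chosen after seeing the data, the ranked density near piRNA genes over other cluster sequence was 0.401 to 0.452 with 1 replicate alone, 0.504 at 500 bp, and 0.771, 0.703, 0.779, 0.835 and 0.918 in the bands of GC content from low to high. The ranked density, clusters over rest of IV, was 0.687 to 0.738 with 1 replicate alone, 0.849 away from piRNA genes, and 0.544, 0.822, 0.874 and 0.869 in the first and the last 3 bands of GC. The cause of these shifts was not tested.

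No paired analysis was possible because there is 1 group and no test between groups. Depth is unknown, no control list was used, and 29 called peaks leave wide intervals.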
